A study of Sus scrofa with 39 samples.

Results

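The 10 genes described here encode the Janus kinases JAK1, JAK2, JAK3 and TYK2, the transcription factors STAT3, STAT5A, STAT5B and STAT6, and the feedback inhibitors SOCS3 and CISH. They were taken by name, as the rows whose Ensembl pig ID carries 1 of these symbols. The rule itself uses no measured value, but the names were chosen with earlier results of these data known. Shares of members set beside those of all genes are therefore descriptions. All 10 symbols matched 1 row each of the 25880 genes counted, and all 10 passed the low-count filter that left 10731 genes for testing. Whole-blood RNA came from 39 preterm piglets fed formula, of which 19 were controls (CON) and 20 had necrotizing enterocolitis (NEC), an inflammatory and necrotic disease of the immature gut that was diagnosed at necropsy on day 5. The disease was mild in 11 of the 20 and severe in 9. The labels name no strain, genotype or drug treatment, and no source used here gives the day of blood sampling. The labels give 3 batches without saying what a batch is. The controls were split 7, 5 and 7 over batches 1, 2 and 3 and the severe piglets 3, 4 and 2, while the mild piglets came from batch 1 (4) and batch 3 (7). Each library came from a separately labelled piglet, 19 of them female and 20 male.

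Cytokines and hormones that bind receptors without a kinase domain of their own signal through Janus kinases bound to the receptor tails. The kinases phosphorylate the receptor, STAT proteins dock on it, become phosphorylated, pair and enter the nucleus, where they raise or lower transcription of their target genes. SOCS3 and CISH are themselves such targets, and their proteins act back on the receptor complex to limit the signal. In blood, these routes carry the signals of interleukin-6, granulocyte colony-stimulating factor, interferons and the cytokines that maintain lymphocytes. The activity of the pathway rests on phosphorylation, which read counts do not measure, so the values below are transcript levels.

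Libraries held 12.82 to 28.96 M (mega) counts on genes, of which HBB, for the beta chain of red cell globin, took 56.0% on average. HBB and a second globin gene together took 78.55% on average, from 34.3 to 90.4% in single libraries. Levels are given as CPM, counts brought to a common library size and scaled by the trimmed mean of M-values method (TMM), and its factors ranged from 0.308 in CON replicate 7 to 4.09 in CON replicate 16. CON replicates 16 to 19 of batch 3 carry another library prefix (BKDL) in the labels, which no NEC library carries. Multiply aligned reads averaged 46.6% in these BKDL libraries and 30.5% over all 39. Prefix and severity therefore cannot be fully told apart in batch 3. NEC_Severe replicate 2 was labelled male but had 0 counts on KDM5D and 1 on EIF1AY, which are Y-linked genes with medians of 28.5 and 96.5 counts in the male libraries. Its label or identity is therefore in doubt. The severe differences from CON, the fitted severe differences of batch 1 and the values by sex are also given without it. NEC_Severe replicate 9 had the fewest genes detected of the 39 libraries, at 10674, and the highest HBB share of the severe group, at 66.0%. Values without it below therefore leave out an unusual library as a whole. Replicate numbers were assigned in order and pair no piglets.

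The counts behind the 10 genes differed in depth. JAK2 had 22 to 868 counts per library, CISH 26 to 738 and SOCS3 19 to 6158, and no member was at 0 in any library. On the pig assembly Sscrofa11.1, the RefSeq gene spans place STAT3 (ENSSSCG00000017403) at chr12:20407316-20471091, STAT5A (ENSSSCG00000017402) at chr12:20474221-20498785 and STAT5B (ENSSSCG00000017406) at chr12:20498103-20574365. STAT3 and STAT5A lie 3129 bases apart, and the spans of STAT5A and STAT5B overlap by 683 bases. STAT5A and STAT5B are also close paralogs, so reads in the overlap or in shared sequence could have been discarded or split, and their counts are uncertain to that extent. The other genes lie apart, with JAK2 (ENSSSCG00000005215) at chr1:216849744-217002310, JAK1 (ENSSSCG00000003809) at chr6:147320288-147567188 and SOCS3 (ENSSSCG00000036956) at chr12:3643832-3647015. JAK3 (ENSSSCG00000013888) lies at chr2:59905901-59926504 and TYK2 (ENSSSCG00000013648) at chr2:69157774-69183555. STAT6 (ENSSSCG00000040435) lies at chr5:22406356-22422412 and CISH (ENSSSCG00000040581) at chr13:33086280-33090540. Values are compared between piglets and not between genes, because transcript lengths were not used here.

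In the severe piglets JAK2, STAT3, STAT6 and SOCS3 read above the controls and STAT5A read below them, while JAK1, JAK3, STAT5B and CISH stood near the control level. TYK2 also read above the controls, at a log2 fold change of 0.34 (edgeR unadjusted p = 0.0897) that depended on NEC_Severe replicate 2. edgeR's quasi-likelihood test with Benjamini-Hochberg adjustment over all 10731 genes called 0 of the 10 members in any of the 4 comparisons of severity. For severe against CON, 2.09% of all genes tested were called, so an absence of calls among 10 genes is close to the background. At an unadjusted p under 0.05 the severe comparison had 5 of the 10 members, beside 18.6% of all genes. Of all genes 8.69% passed that threshold on the higher side, where JAK2, STAT3, STAT6 and SOCS3 lay, and 9.9% on the lower side, where STAT5A lay. In all, 9 members read above CON and 1 below, with a median log2 fold change of 0.24 over the members and -0.05 over all genes. Without the doubtful NEC_Severe replicate 2, 0 members were called and 3 had an unadjusted p under 0.05 (JAK2, STAT3 and STAT5A), beside 0.111% of all genes called and 14.2% with an unadjusted p under 0.05. JAK1, JAK3 and CISH then read 0.04, 0.10 and 0.08. In bulk blood a change in the number of cells of a type and a change in RNA per cell cannot be told apart.

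Against the same controls, the mild piglets had no member with an unadjusted p under 0.05, beside 7.84% of all genes, and 0 were called, beside 0% of all genes. There 5 members read above CON and 5 below, with a median log2 fold change of -0.01. All 20 NEC piglets together against CON had 4 members with an unadjusted p under 0.05, namely JAK2, STAT3, STAT5A and STAT6, beside 14.4% of all genes. edgeR called 0% of all genes in that comparison. For severe against mild, 1 member had an unadjusted p under 0.05, SOCS3, beside 12.6% of all genes, and 0.112% of all genes were called. The mild and severe comparisons share their 19 control libraries and are therefore not independent of each other.

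**Figure D1:**
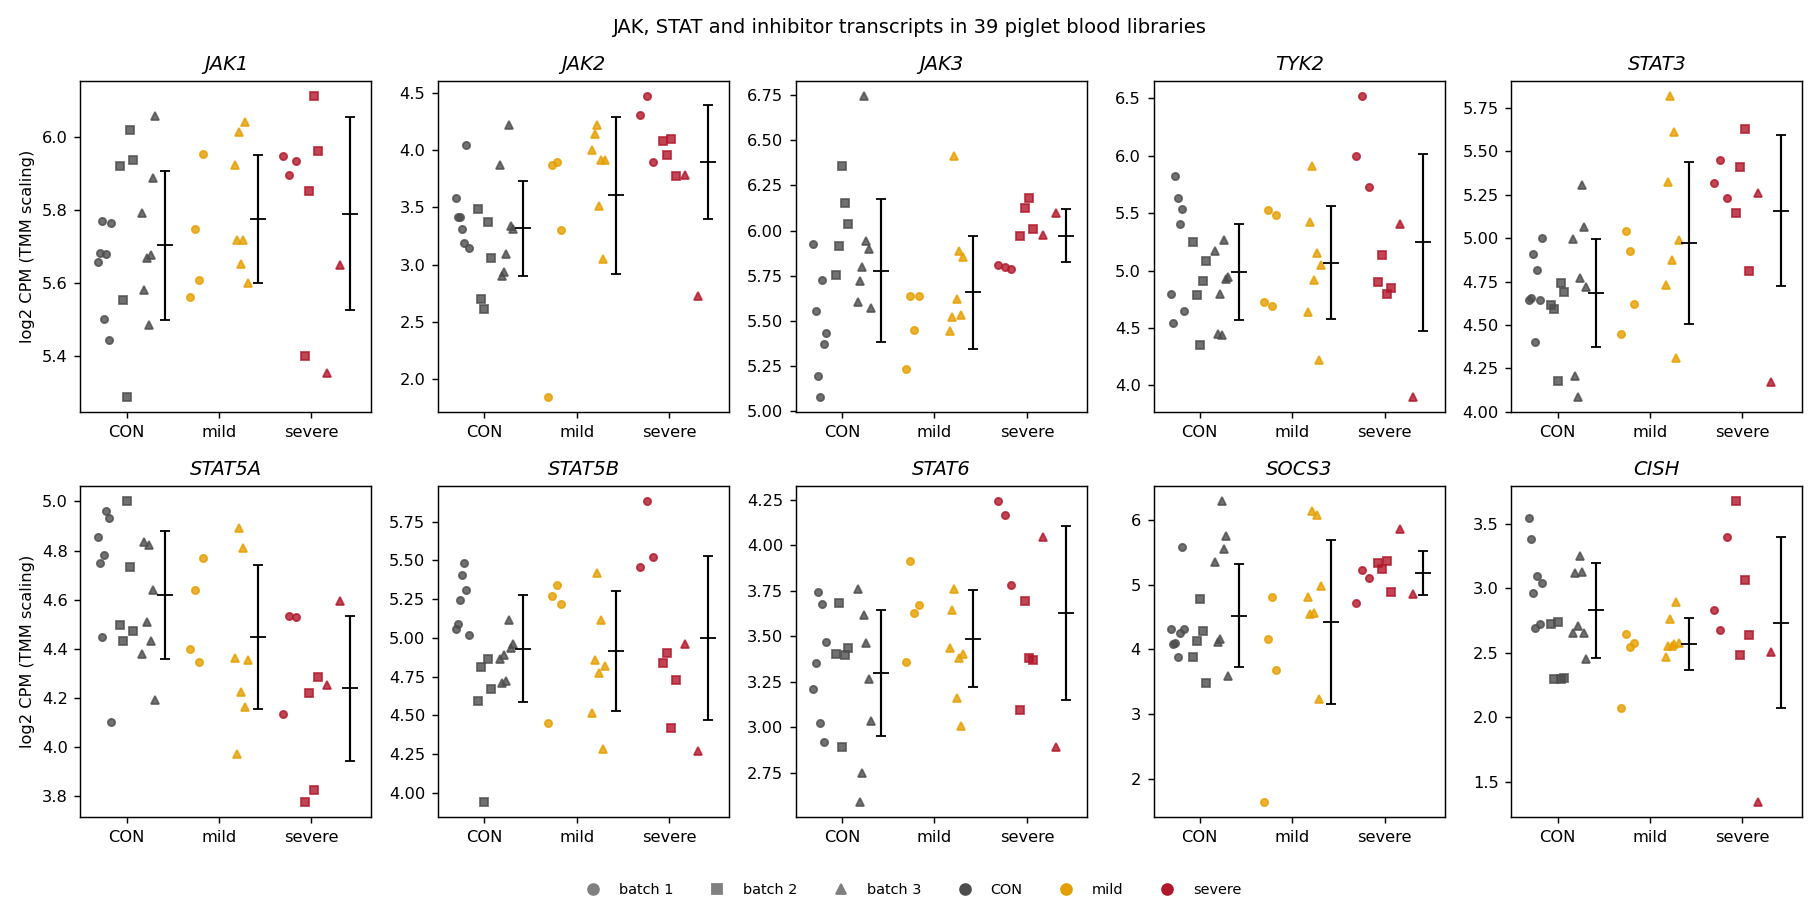
Log2 CPM (TMM scaling) of the 10 genes in 39 blood libraries, with 1 panel per gene and each panel on its own vertical scale. Points are piglets, colours mark severity, shapes mark batch, and bars show the group mean ± SD. The severe piglets of batches 1 and 2 lie high for JAK2 and STAT3, while the lowest severe point in both panels is a batch 3 piglet.

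**Figure D2:**
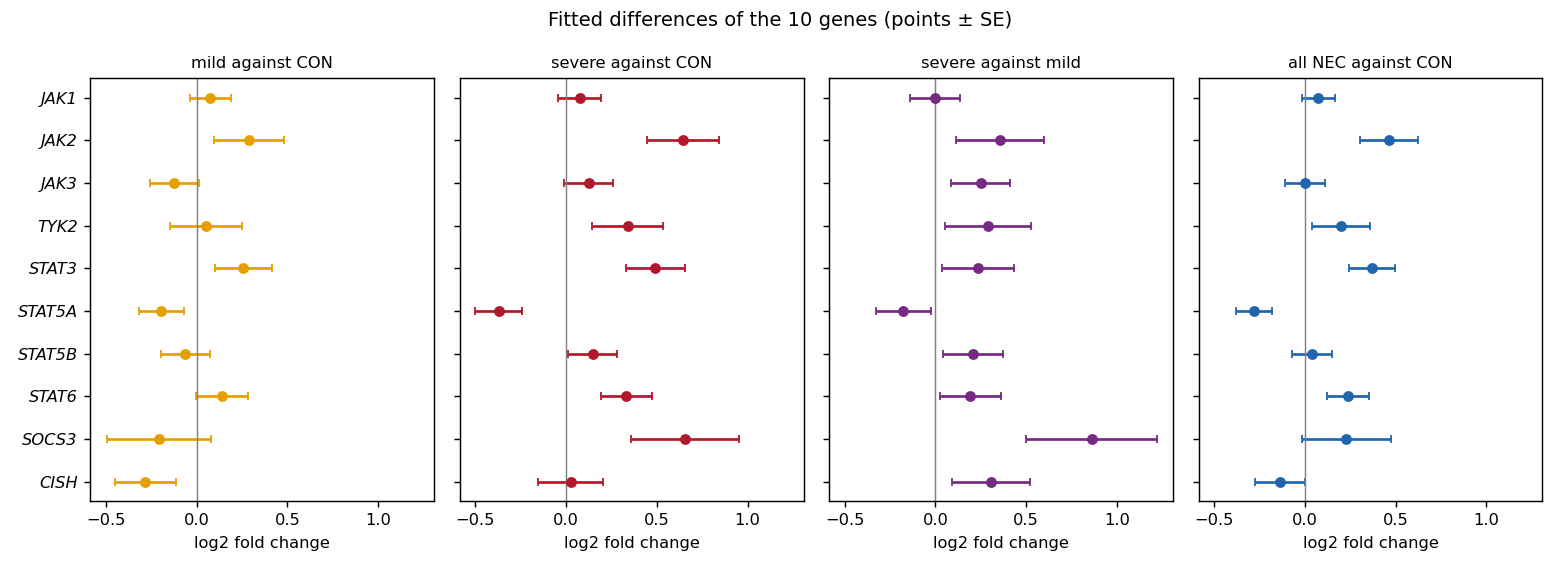
Fitted log2 fold changes (points) ± SE of the 10 genes in the 4 comparisons of severity, from edgeR fits with batch and sex as terms. For severe against CON, JAK2 at 0.64 and SOCS3 at 0.65 lie furthest to the right, and STAT5A at -0.37 is the single member below 0.

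Among the kinases, JAK2 differed most. It serves the receptors for erythropoietin, growth hormone, interferon-gamma and the cytokines of the common beta chain. The control piglets ranged from 6.02 to 18.5 CPM with a median of 9.85, the mild piglets from 3.50 to 18.6 with a median of 14.8, and the severe piglets from 6.52 to 22.1 with a median of 15.4. The group means over all batches were 10.3 ± 3.23 CPM (SD, n = 19), 13.1 ± 4.47 (n = 11) and 15.5 ± 4.39 (n = 9). The 3 groups overlapped widely, and both diseased groups sat above the control mean when batches were pooled. The log2 fold change of severe against CON was 0.64 ± 0.20 (SE; 95% interval 0.26 to 1.03), with p = 0.00222 and an edgeR adjusted p of 0.0646. For mild against CON it was 0.29 ± 0.19 (edgeR adjusted p = 0.683). By batch the mild JAK2 difference was -0.03 ± 0.29 in batch 1 and 0.39 ± 0.25 in batch 3. Severe against mild gave 0.36 ± 0.24 (edgeR adjusted p = 0.535).

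The JAK2 values separated the groups in batch 2 but not in batches 1 and 3. In batch 2 the 5 controls read 6.02, 6.41, 8.26, 10.3 and 11.1 CPM and the 4 severe piglets 13.6, 15.4, 16.8 and 17.0, with no overlap; 2.31% of all genes were higher in severe without overlap there. In batch 1 the 3 severe piglets read 14.8, 19.8 and 22.1 CPM, and of the 7 controls only replicate 6, at 16.4, reached into that range. In batch 3 the 2 severe piglets read 6.52 and 13.6 CPM, inside the control range of 7.38 to 18.5 for the higher and below it for the lower. The control at 18.5 CPM was CON replicate 17, a BKDL library. The fitted differences were 0.78 ± 0.30, 0.89 ± 0.30 and -0.12 ± 0.37 in batches 1, 2 and 3. The test of unequal differences over batches gave JAK2 p = 0.103 and an edgeR adjusted p of 0.396, so the batches were not shown to differ for it. Leaving out NEC_Severe replicate 9, the low piglet of batch 3, raised the pooled JAK2 value to 0.79 with an edgeR adjusted p of 0.0111. Leaving out NEC_Severe replicate 2, the highest JAK2 library, gave 0.55 with an edgeR adjusted p of 0.207.

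JAK1 pairs with other Janus kinases at the receptors of interferons, interleukin-6 and the common gamma chain. The control mean was 52.5 ± 7.40 CPM (SD, n = 19), the mild mean 55.1 ± 6.82 (n = 11) and the severe mean 56.0 ± 9.61 (n = 9). The severe against CON difference was 0.07 ± 0.12 with an interval of -0.15 to 0.30 (edgeR adjusted p = 0.786). In batch 1 alone the severe piglets, at 59.5, 61.1 and 61.6 CPM, all stood above the 7 controls at 43.4 to 54.5, where 4.25% of all genes were higher without overlap. The highest JAK1 value of that batch was nevertheless in a mild piglet, NEC_Mild replicate 4, at 61.9 CPM. The batches did not share the order of severe above CON, with 40.8 and 50.2 CPM in the severe piglets of batch 3 against controls of 44.7 to 66.5. Both ends of that control range were BKDL libraries.

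JAK3 associates with the common gamma chain and is found mainly in lymphoid and other blood cells. The control mean was 56.9 ± 16.9 CPM, the mild mean 51.6 ± 12.7 and the severe mean 63.0 ± 6.404. The severe piglets lay within 55.2 to 72.3 CPM, a narrower span than the 33.7 to 107 of the controls, whose top value belonged to CON replicate 16. Severe against CON gave 0.13 ± 0.14 (edgeR adjusted p = 0.662) and severe against mild 0.25 ± 0.16 (edgeR adjusted p = 0.511).

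TYK2, the partner of JAK1 or JAK2 at receptors of type I interferons and of interleukin-12 and interleukin-23, had the widest spread among the kinases in severe piglets. Their values ran from 14.8 to 91.7 CPM with a median of 35.1, against 20.3 to 56.5 with a median of 30.4 in CON. The log2 fold change was 0.34 ± 0.20 (edgeR adjusted p = 0.347). The top value, 91.7 CPM, was that of NEC_Severe replicate 2, and without this library the difference was 0.13 ± 0.20. By batch the difference was 0.85 ± 0.30, 0.02 ± 0.30 and -0.09 ± 0.37.

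Among the transcription factors, STAT3 carries the signals of interleukin-6, interleukin-10 and granulocyte colony-stimulating factor. Control piglets ranged from 16.9 to 39.5 CPM with a median of 25.7, mild piglets from 19.7 to 56.4 with a median of 30.3, and severe piglets from 17.9 to 49.5 with a median of 38.2. The means over all batches were 26.2 ± 5.61 (SD, n = 19), 32.9 ± 11.3 (n = 11) and 36.9 ± 9.27 CPM (n = 9), in the order of severity but with overlapping ranges. Batch 3 did not keep that order, with means of 27.6 CPM in CON, 36.0 in mild and 28.1 in the 2 severe piglets. In batch 1 the mild mean of 27.4 CPM was close to the 26.5 of CON. Severe against CON gave 0.49 ± 0.16 (95% interval 0.17 to 0.81; p = 0.00412; edgeR adjusted p = 0.0849). Mild against CON gave 0.26 ± 0.16 (edgeR adjusted p = 0.67), and severe against mild 0.24 ± 0.20 (edgeR adjusted p = 0.624), so neighbouring grades of severity were not separated.

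STAT3 separated severe from control piglets without overlap in both batch 1 and batch 2, where 4.25 and 2.31% of all genes were higher without overlap. In batch 1 the severe piglets read 37.5, 39.8 and 43.6 CPM and the 7 controls 21.0 to 31.9 with a median of 25.2. In batch 2 the severe piglets read 28.0, 35.3, 42.4 and 49.5 CPM and the controls 18.0, 24.1, 24.5, 25.7 and 26.6. In batch 3 the severe piglets, at 17.9 and 38.2 CPM, lay within the control range of 16.9 to 39.5. The control at 39.5 CPM was CON replicate 17, a BKDL library. The differences were 0.59 ± 0.26, 0.69 ± 0.25 and -0.02 ± 0.31. The test over batches gave STAT3 p = 0.196 (edgeR adjusted p = 0.507), with 0.103% of all genes called in it. The pooled difference was 0.62 without NEC_Severe replicate 9 (edgeR adjusted p = 0.0165) and 0.42 without NEC_Severe replicate 2 (edgeR adjusted p = 0.253).

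STAT5A was the member that read lower in the severe piglets. With STAT5B it transmits the signals of interleukin-2, interleukin-7, granulocyte-macrophage colony-stimulating factor, growth hormone and prolactin. The control range was 17.1 to 32.0 CPM with a median of 24.8, the mild range 15.6 to 29.6 with a median of 20.5, and the severe range 13.6 to 24.1 with a median of 19.0. The means over all batches were 24.9 ± 4.39, 22.2 ± 4.55 and 19.1 ± 3.79 CPM, lower at each grade of severity but with overlapping ranges. In batch 3 the mild and severe means were both 21.5 CPM. Severe against CON gave -0.37 ± 0.13 (95% interval -0.62 to -0.12; p = 0.0059; edgeR adjusted p = 0.100). The mild difference was -0.19 ± 0.13 (edgeR adjusted p = 0.673). In batch 2 the severe piglets read 13.6, 14.1, 18.5 and 19.4 CPM, all below the controls at 21.5, 22.1, 22.5, 26.5 and 32.0, where 3.02% of all genes were lower without overlap. STAT5A read -0.31 ± 0.22, -0.60 ± 0.21 and -0.13 ± 0.25 in batches 1, 2 and 3, below 0 in each. Without NEC_Severe replicate 9 the pooled value was -0.44 (edgeR adjusted p = 0.0353), and without NEC_Severe replicate 2 it was -0.40 (edgeR adjusted p = 0.145).

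STAT5B is the neighbour and paralog of STAT5A. The STAT5B means were 31.2 ± 6.89 CPM for controls, 31.0 ± 8.05 for mild and 33.9 ± 12.98 for severe piglets, with a severe difference of 0.15 ± 0.14 (edgeR adjusted p = 0.609). Its severe values ran from 19.2 to 58.9 CPM, and the top one again belonged to NEC_Severe replicate 2; without it the difference was 0.05 ± 0.14.

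STAT6 is activated by interleukin-4 and interleukin-13. The means of controls, mild and severe piglets were 10.03 ± 2.30, 11.3 ± 2.06 and 12.9 ± 4.14 CPM. The severe difference was 0.33 ± 0.14 (p = 0.0245; edgeR adjusted p = 0.195), and 0.26 ± 0.15 without NEC_Severe replicate 2 (p = 0.0935; edgeR adjusted p = 0.435). In batch 1 the severe piglets, at 13.7, 17.8 and 18.8 CPM, stood above all 7 controls at 7.48 to 13.3, as 4.25% of all genes did there. In batch 2 they read 8.47, 10.3, 10.3 and 12.9 CPM beside controls of 7.35 to 12.8, and the difference was 0.01 ± 0.23. The STAT6 difference in batch 1 was 0.70 ± 0.23 and in batch 3 0.28 ± 0.27, and the test over batches gave an edgeR adjusted p of 0.416.

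Of the feedback inhibitors, SOCS3 is induced through STAT3 and blocks Janus kinases at receptors of the interleukin-6 and granulocyte colony-stimulating factor family. It was the most variable member in control and mild piglets. Controls ranged from 11.1 to 78.5 CPM with a median of 18.9, mild piglets from 3.02 to 70.7 with a median of 23.4, and severe piglets from 26.2 to 58.1 with a median of 37.3. The means were 27.0 ± 18.1 (n = 19), 28.7 ± 21.8 (n = 11) and 37.1 ± 9.49 CPM (SD, n = 9). No severe piglet read below 26.2 CPM, whereas controls and mild piglets had both lower and higher values. Severe against CON gave 0.65 ± 0.30 (95% interval 0.07 to 1.24; p = 0.0337; edgeR adjusted p = 0.227), and 0.57 without NEC_Severe replicate 2 (p = 0.0837; edgeR adjusted p = 0.417). Severe against mild gave 0.86 ± 0.36 (p = 0.0224; edgeR adjusted p = 0.33). Mild against CON gave -0.21 ± 0.29 (edgeR adjusted p = 0.859), and -0.07 without either NEC_Mild replicate 1 or CON replicate 16.

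The separation of SOCS3 was clearest in batch 2. There the controls read 11.1, 14.7, 17.4, 19.3 and 27.5 CPM, and the severe piglets 29.5, 38.0, 40.5 and 41.3, with no overlap, as for 2.31% of all genes on the higher side. In batch 1, 6 of the 7 controls lay between 14.7 and 19.9 CPM and replicate 6 at 47.8, beside severe values of 26.2, 34.3 and 37.3. In batch 3 the controls spread from 11.98 to 78.5 CPM around severe values of 29.1 and 58.1. Both ends of that control spread were BKDL libraries. The differences were 0.57 ± 0.50, 1.03 ± 0.49 and 0.14 ± 0.58, all above 0 but with wide errors. Without the 4 BKDL controls the pooled difference was 0.74 (edgeR adjusted p = 0.181).

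CISH is induced through STAT5 and restrains the receptors that activate STAT5. Its severe piglets, at 7.16 ± 2.99 CPM, matched the control mean of 7.24 ± 1.90, and mild piglets had 5.88 ± 0.788. The severe difference was 0.02 ± 0.18 (edgeR adjusted p = 0.961) and the mild difference -0.28 ± 0.17 (edgeR adjusted p = 0.67). The batch differences beside that near-zero severe value lay on both sides of 0, but they were not shown to be unequal. In batch 2 the severe piglets read 5.51, 6.13, 8.26 and 12.7 CPM beside controls of 4.83, 4.84, 4.85, 6.53 and 6.57, a difference of 0.57 ± 0.23. In batch 3 the severe piglets read 2.45 and 5.58 CPM beside controls of 5.38 to 9.41, a difference of -0.90 ± 0.31. Batch 1 gave -0.08 ± 0.24, and 0.11 ± 0.28 without NEC_Severe replicate 2. CISH was the single member with an unadjusted p under 0.05 in the test of unequal severe differences over batches (p = 0.00199; edgeR adjusted p = 0.135), where 16.1% of all genes had one. In batch 1 the mild piglets, at 4.13, 5.76, 5.87 and 6.16 CPM, lay below all 7 controls at 6.38 to 11.6. Among all genes, 0.382% were lower in mild without overlap there. In batch 3 mild piglets overlapped the controls, and the mild differences of -0.63 ± 0.23 and -0.22 ± 0.19 were not shown to differ between batches (p = 0.179; edgeR adjusted p = 0.809).

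**Figure D3:**
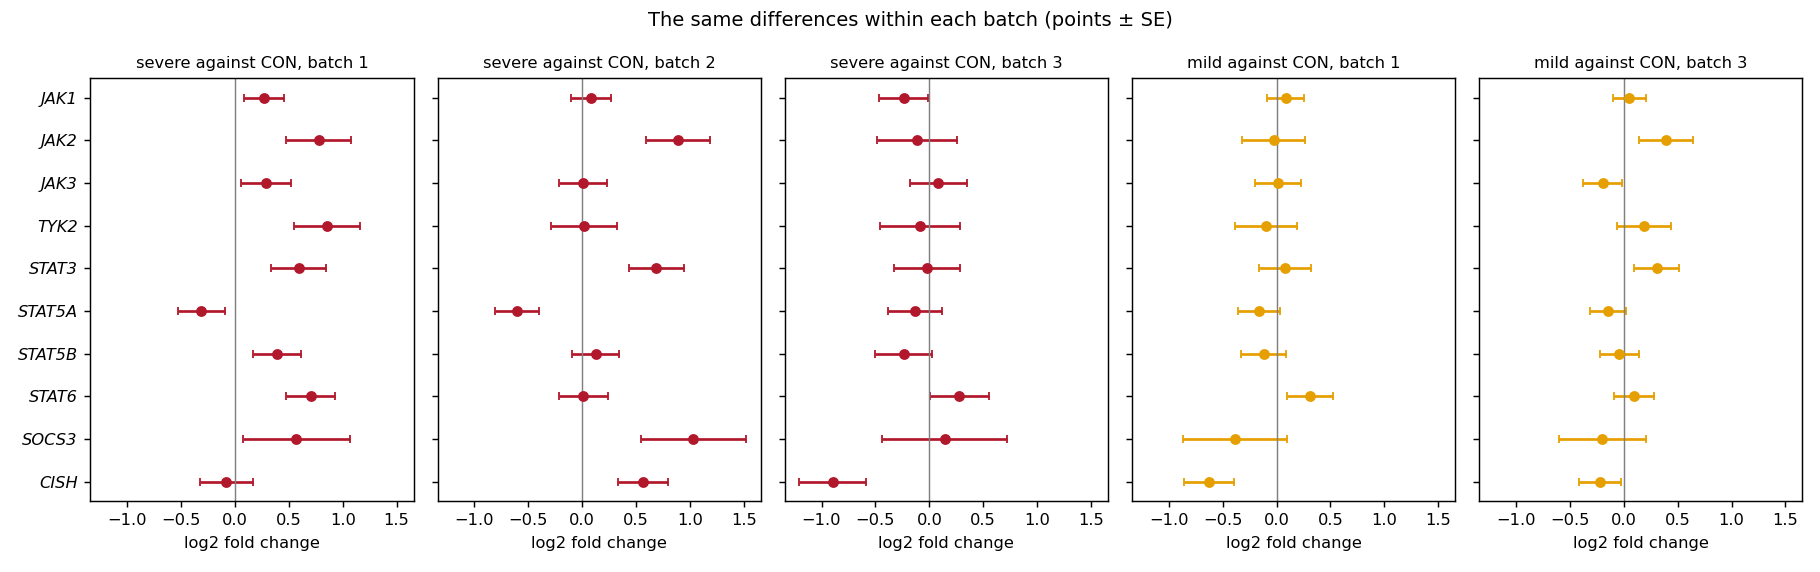
Log2 fold changes (points) ± SE of the 10 genes against CON within each batch, for severe piglets in batches 1 to 3 and mild piglets in batches 1 and 3. JAK2 and STAT3 lie near 0.6 to 0.9 for severe piglets of batches 1 and 2 and near 0 in batch 3, and CISH lies on opposite sides of 0 in batches 2 and 3.

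The counts of members for severe against CON are set side by side by batch, without a test of their difference. Batch 1 had 8 members above CON and 4 with an unadjusted p under 0.05 (JAK2, TYK2, STAT3 and STAT6), beside 12.9% of all genes. Batch 2 had 9 above CON and 5 with an unadjusted p under 0.05 (JAK2, STAT3, STAT5A, SOCS3 and CISH), beside 11.5%. Batch 3, with 2 severe piglets, had 3 above CON and 1 with an unadjusted p under 0.05 (CISH), beside 20.3%. The percentages of genes called by edgeR were 0.149, 0.00932 and 2.52% in the 3 batches, with 0 members among them each time. Without NEC_Severe replicate 2, batch 1 kept 2 severe piglets and 1 member with an unadjusted p under 0.05 (STAT6), beside 3.94% of all genes. JAK2, TYK2, STAT3, STAT6 and SOCS3 then read 0.62 ± 0.36, 0.50 ± 0.35, 0.44 ± 0.30, 0.59 ± 0.27 and 0.30 ± 0.59 in batch 1. JAK1, JAK3, STAT5A and STAT5B read 0.26 ± 0.23, 0.24 ± 0.27, -0.40 ± 0.26 and 0.22 ± 0.26, and CISH changed sign to 0.11 ± 0.28.

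The difference between NEC and CON was also set side by side in the sexes. STAT3 read 0.44 ± 0.19 in females and 0.31 ± 0.18 in males, JAK2 0.48 ± 0.24 and 0.45 ± 0.22, and STAT5A -0.27 ± 0.15 and -0.29 ± 0.14. SOCS3 read -0.01 ± 0.36 in females and 0.46 ± 0.35 in males. The edgeR interaction of NEC with sex had an adjusted p of 1 for each of the 10 members and 0 members with an unadjusted p under 0.05, beside 1.43% of all genes; the intervals were wide, at -0.67 to 0.62 for JAK2 and -0.52 to 1.45 for SOCS3. NEC_Severe replicate 2 counts as male there, against its Y-linked counts. Without it the males read 0.22 ± 0.18 for STAT3, 0.34 ± 0.23 for JAK2, -0.30 ± 0.15 for STAT5A and 0.33 ± 0.36 for SOCS3, and the interaction again had 0 members with an unadjusted p under 0.05, beside 1.84% of all genes.

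Ratios of 2 genes in the same library remove the scaling between libraries. Among 6 ratios in each of 2 comparisons, 12 in all, the severe piglets had a higher JAK2 to JAK1 ratio and a lower STAT5A to STAT5B ratio than the controls. The log2 ratio of JAK2 to JAK1 averaged -1.90 ± 0.49 (SD, n = 9) in severe and -2.39 ± 0.43 (n = 19) in CON piglets. The within-batch difference was 0.525 (exact 2-sided permutation p = 0.00748; adjusted p = 0.0449 over the 12 comparisons). It was 0.50, 0.85 and 0.10 in batches 1, 2 and 3. The log2 ratio of STAT5A to STAT5B averaged -0.76 ± 0.52 in severe and -0.31 ± 0.44 in CON piglets, and the within-batch difference was -0.49 (exact permutation p = 0.00744; adjusted p = 0.0449). By batch it was -0.68, -0.75 and 0.15, so batch 3 went the other way. Both ranges overlapped, with JAK2 to JAK1 running from -2.94 to -1.33 in severe and from -2.88 to -1.40 in CON piglets.

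Both calls lay just under the threshold and depended on single libraries. Over 28 libraries left out in turn, the JAK2 to JAK1 difference kept its sign, between 0.445 and 0.694, but its adjusted exact permutation p was under 0.05 in only 4 of 28. These 4 were without CON replicates 6, 13 or 17 or NEC_Severe replicate 9. The STAT5A to STAT5B difference ran from -0.661 to -0.390 and passed in 3 of 28, those without CON replicates 13 or 17 or NEC_Severe replicate 9. Adjusted exact permutation p-values ranged from 0.00184 to 0.142 for the former and from 0.000496 to 0.142 for the latter. Without NEC_Severe replicate 2 the differences were 0.49 and -0.45, each with an adjusted exact permutation p of 0.121. The overlap of the STAT5A and STAT5B spans bears on the second ratio.

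The other severe ratios did not pass. SOCS3 to STAT3 was higher by 0.28 in log2 terms in severe than in CON piglets (exact permutation p = 0.247; adjusted p = 0.546). STAT3 to STAT6 differed by 0.14, JAK3 to JAK1 by 0.09 and CISH to STAT5B by -0.22, with adjusted exact permutation p-values of 0.546, 0.754 and 0.546. In mild piglets 0 of 6 ratios passed. The mild SOCS3 to STAT3 ratio was -0.59 against CON (exact permutation p = 0.0594; adjusted p = 0.238), and the adjusted p-values of the other 5 lay between 0.253 and 0.925. The mild comparison used 11 mild piglets and the 14 controls of batches 1 and 3, since batch 2 held no mild piglet.

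**Figure D4:**
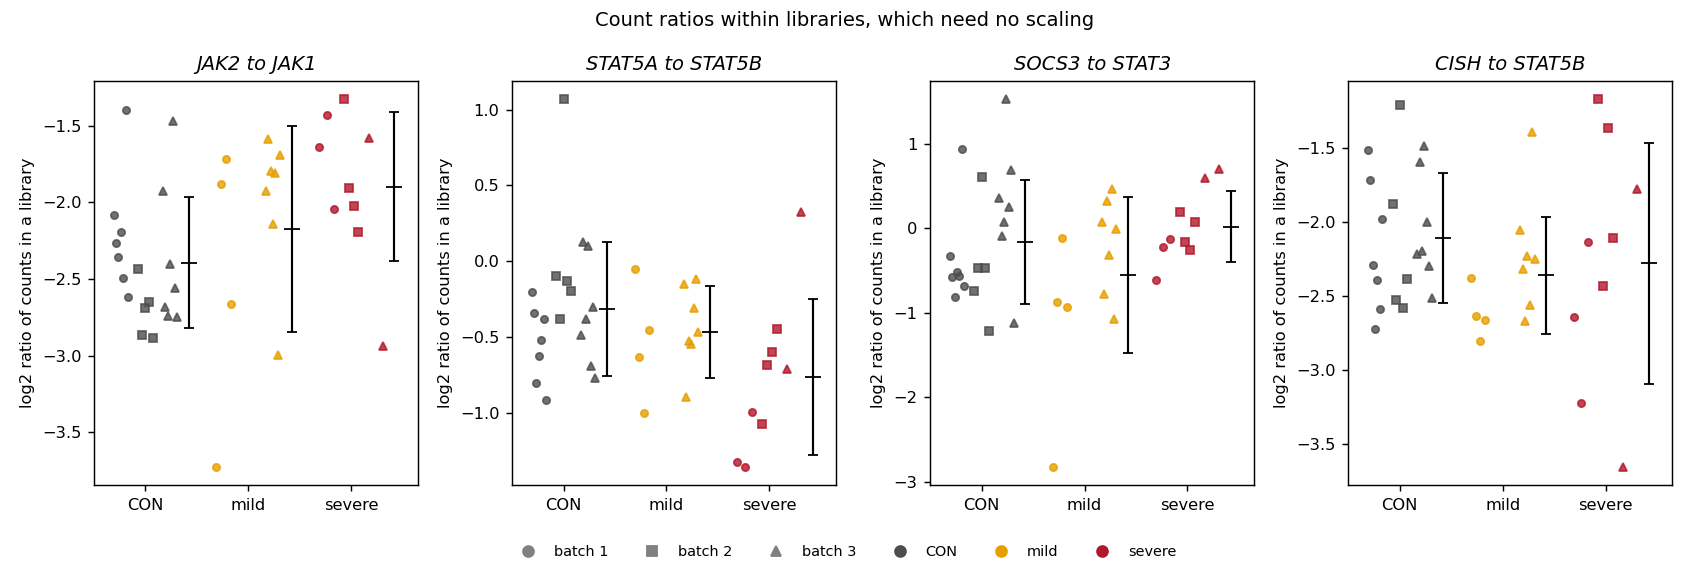
Log2 ratios of the counts of 2 genes within each library, by severity (colour) and batch (shape), with group mean ± SD. The severe mean of JAK2 to JAK1 is -1.90 against -2.39 in CON, and that of STAT5A to STAT5B is -0.76 against -0.31.

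The kinase JAK2, the factor STAT3 and the inhibitor SOCS3 were high in the same piglets, whereas no such relation was detected between STAT5B and CISH. After centring log2 CPM within batches, JAK2 and STAT3 had a Pearson r of 0.771 over 39 piglets (permutation adjusted p = 4e-05 over 4 pairs) and a Spearman rho of 0.796 (permutation adjusted p = 2e-05). The r was 0.686, 0.866 and 0.859 in batches 1, 2 and 3, and 0.798 without the 2 piglets farthest from the JAK2 median. STAT3 and SOCS3 had r = 0.623 (permutation adjusted p = 6e-05) and rho = 0.67 (permutation adjusted p = 2e-05), with 0.575, 0.628 and 0.682 in the batches and 0.585 without the 2 farthest piglets. The raw p of 1e-05 for JAK2 with STAT3 is the smallest that 100000 permutations can give. Other pairs of members, for which no p was computed, ran as high, so the relation was not particular to JAK2, STAT3 and SOCS3. The r was 0.779 for TYK2 with STAT5B and 0.706 for STAT3 with STAT6. STAT5B had r = 0.663 with JAK2 and 0.628 with STAT3, whereas STAT5A had -0.298 and -0.335. Blood cell composition is shared by all genes of a library, and its part in these correlations was not tested.

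STAT5B and CISH had r = 0.0242 over 39 piglets and rho = -0.127 (permutation adjusted p = 0.886 and 0.594). The r was -0.152 without the 2 farthest piglets. STAT5A and STAT5B had r = 0.0275 and rho = 0.0903 (permutation adjusted p = 0.886 and 0.594), and 0.241 without CON replicate 10 and NEC_Severe replicate 4. Within batches the r of STAT5A and STAT5B was 0.134, -0.416 and 0.275, of no common sign. When CPM was not scaled by TMM, r was 0.855 for STAT5B with CISH and 0.898 for STAT5A with STAT5B, so the low values of both pairs hold only for scaled levels.

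**Figure D5:**
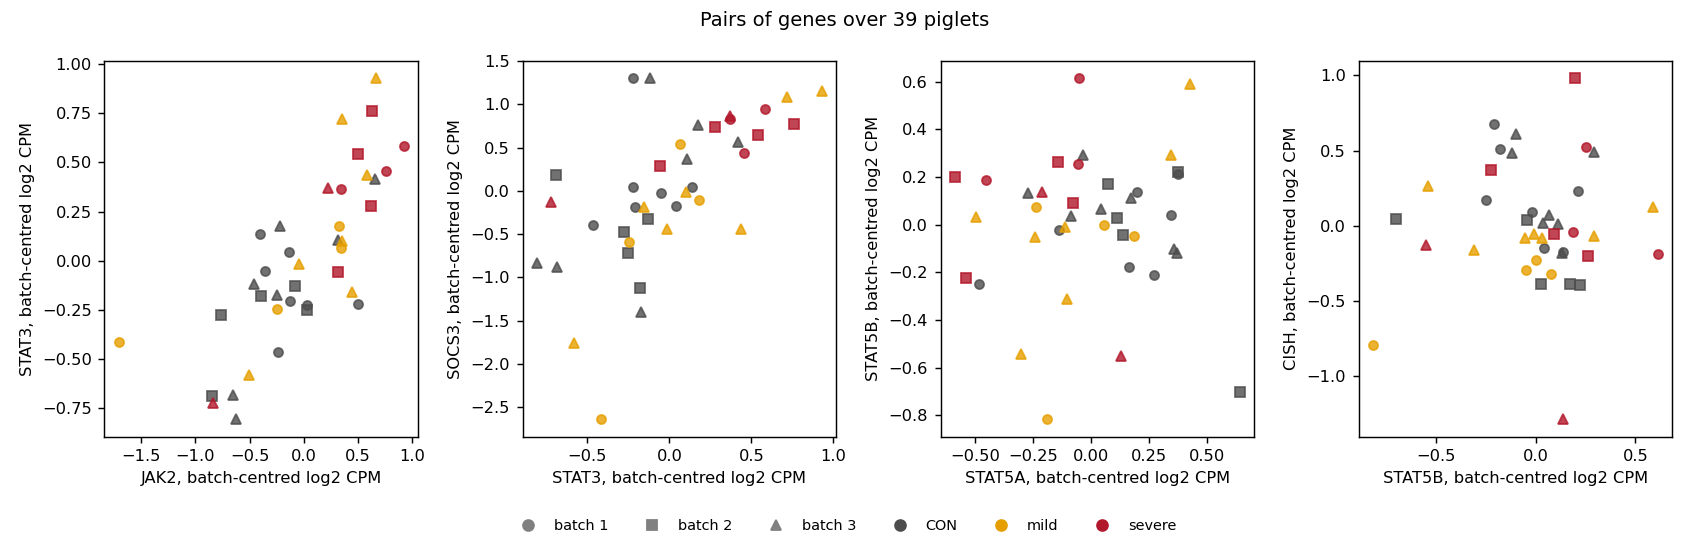
Batch-centred log2 CPM of 4 pairs of genes over 39 piglets, with severity as colour and batch as shape. JAK2 rises with STAT3 (r = 0.771) and STAT3 with SOCS3 (r = 0.623), while STAT5A with STAT5B (r = 0.0275) and STAT5B with CISH (r = 0.0242) form clouds.

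The genes whose levels ran most like those of the members were found by the highest r over the 39 piglets among 3733 genes with a symbol and a mean of at least 5 CPM, as a description. For JAK2 they were the complement C3a receptor gene C3AR1 (r = 0.871), the fatty acid ligase gene ACSL4 (0.863) and the forkhead gene FOXN2 (0.861). For STAT3 they were FOXN2 (0.857), the thrombospondin gene THBS1 (0.855) and IGF2R (0.854), which encodes the receptor for mannose-6-phosphate and insulin-like growth factor 2. For SOCS3 they included the transglutaminase genes TGM3 (0.905) and TGM1 (0.901). For CISH the 3 highest values were lower, at 0.511 for HSP70.2, a heat shock gene with near-identical copies whose counts are uncertain, 0.479 for SLC22A23 and 0.474 for the stress gene DDIT4.

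Marker genes of blood cell types moved with the severe comparison, in which edgeR called 2.09% of all genes. All 6 monocyte markers tested read above CON in severe piglets and 3 passed edgeR, with a summed level of 224 to 548 CPM in severe and 105 to 517 CPM in CON piglets. The 5 neutrophil markers that the files hold, of 9 listed, all read above CON and 0 passed; their summed level ran from 200 to 2234 CPM in severe piglets, from 35.3 to 2222 in mild piglets and from 97.1 to 2194 in controls. All 9 T cell markers read below CON and 1 passed, with sums of 79.0 to 279 CPM in severe and 169 to 371 CPM in CON piglets. All 7 B cell markers read below CON and 3 passed, at 18.2 to 62.8 CPM in severe and 32.6 to 90.6 CPM in CON piglets. The 5 natural killer and cytotoxic cell markers tested all read above CON with 0 passing. Summed over the 6 in the files, they ran from 5.93 to 164 CPM in severe and from 4.02 to 46.9 CPM in CON piglets. The 5 platelet and 7 red cell markers tested all read below CON with 0 passing, and no marker of these lists was at 0 in all 39 libraries. In the mild piglets edgeR called 0 markers of any list, beside 0% of all genes. There 6 of 7 B cell markers read above CON, 5 of them with an unadjusted p under 0.05, beside 3.35% of all genes on that side. All 5 platelet markers read below CON with an unadjusted p under 0.05, beside 4.49% of all genes on that side. All 5 natural killer and cytotoxic cell markers tested read above CON, and 4 of 6 monocyte markers read below CON. The part of these cell types in the JAK, STAT and SOCS3 values was not tested.

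A wider list of 97 genes of the pathway was read beside the members; 89 are in the files and 60 were tested. edgeR called 0 of the 60 in each of the 4 comparisons. For severe against CON, 13 had an unadjusted p under 0.05 on the higher side and 5 on the lower, beside 8.69 and 9.9% of all genes, and the median log2 fold change was 0.20 against -0.05 over all genes. For mild against CON the counts were 1 and 0, beside 3.35 and 4.49% of all genes, and for severe against mild 10 and 1, beside 6.42 and 6.21%.

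Among the inhibitors and phosphatases 13 of 16 read above CON in severe piglets. Of these, 4 had an unadjusted p under 0.05, beside 8.69% of all genes on that side. The tyrosine phosphatase gene PTPN1, whose product dephosphorylates JAK2 and TYK2, read 0.63 ± 0.20 (edgeR adjusted p = 0.0684), and PTPRC, the gene of the leukocyte phosphatase CD45, 0.41 ± 0.16 (edgeR adjusted p = 0.15). Among the other transducers STAT4, the factor of interleukin-12 signals, read -0.67 ± 0.24 (edgeR adjusted p = 0.121) and the adaptor gene GRB2 0.32 ± 0.15 (edgeR adjusted p = 0.259).

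Receptor genes read in both directions. CSF2RB, the common beta chain of the interleukin-3, interleukin-5 and granulocyte-macrophage colony-stimulating factor receptors and the single gene of its class tested, read 0.79 ± 0.24 (edgeR adjusted p = 0.0617). The type I interferon receptor genes IFNAR1 and IFNAR2 read 0.64 ± 0.25 and 0.47 ± 0.19 (edgeR adjusted p = 0.147 and 0.165). Their class holds interferon, interleukin-10 and interleukin-12 family receptors, of which 6 of 7 tested read above CON. In the class of common gamma chain and related receptors 3 of 8 read above CON. There IL13RA1, one of the related receptors, read 0.61 ± 0.25 and IL9R -1.07 ± 0.38 (edgeR adjusted p = 0.166 and 0.113). In the interleukin-6 and granulocyte colony-stimulating factor receptor family 2 of 5 read above CON, with CSF3R at 0.35 ± 0.28 and IL27RA at -0.59 ± 0.22 (edgeR adjusted p = 0.527 and 0.139).

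Ligand transcripts were scarce in these blood libraries: 2 of the 19 in the files passed the filter, IL10 at 0.71 ± 0.43 and IL15 at -0.10 ± 0.55 for severe against CON (edgeR adjusted p = 0.371 and 0.951). Of 14 target genes 8 read above CON. BCL6, a transcriptional repressor induced through STAT proteins, read 0.70 ± 0.26 (edgeR adjusted p = 0.139), and CEBPB, a myeloid transcription factor gene, 0.79 ± 0.33 (edgeR adjusted p = 0.185).

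The number of members called in severe piglets turned on the tool. DESeq2 called 3 members, JAK2, STAT3 and STAT5A, with adjusted p-values of 0.0312, 0.0416 and 0.0496, beside 5.29% of all genes. limma with sample weights called 5, the same 3 with STAT6 and SOCS3, beside 15.9% of all genes, and for severe against mild it called SOCS3 at 1.09 (limma adjusted p = 0.0318), beside 7.62%. In the pathway list DESeq2 called PTPN1 and CSF2RB higher, and limma 9 genes higher and 5 lower. DESeq2 and limma called 0 members in the mild comparison, where each called 0% of all genes. It also turned on single libraries in edgeR: JAK2, STAT3 and STAT5A were called without NEC_Severe replicate 9, beside 6.66% of all genes, and JAK2 alone without NEC_Mild replicate 1, beside 2.35%, or without CON replicate 17, beside 2.13%.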

How the data were processed

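Whole-blood RNA of 39 piglets was sequenced as paired-end mRNA libraries on an Illumina instrument, per the labels' protocols. The deposited values are raw read counts for each Ensembl pig gene, in a separate file for each piglet. Per the submitters' processing notes they used Trim Galore, TopHat, HTSeq and DESeq2 with the build Sscrofa11.1. How HTSeq handled strand and overlaps, which annotation it read and which versions ran are details not given in the sources used here. The 5 closing lines that name no gene stayed out of library sizes and tests; they held on average 30.5% of all reads counted as multiply aligned, 7.48% as ambiguous and 2.20% as outside features. Symbols came from a table of Ensembl pig IDs, which named 14857 genes, and coordinates from a RefSeq gene table.

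The main test was edgeR 4.0.16 (R 4.3.3): glmQLFit with robust dispersions, TMM, filterByExpr on the 3 severity groups with a minimum count of 10, batch and sex as terms, all 39 piglets, Benjamini-Hochberg adjustment over 10731 genes and a threshold of 0.05. A standard error is the fold change over the square root of F. Batch differences came from cell means of batch by severity, and the sex interaction from a fit with that term. Library ratios used log2 of count + 0.5 and exact 2-sided permutation within batches (544320 arrangements for severe, 1132560 for mild); correlations used log2 CPM with a prior count of 2 and 100000 permutations within batches. The fit was tested on simulated data for severe against CON, where it recovered 70.5% of genes changed by a log2 size of 1 and 94.8% at 2. Of its calls there, 4.24% were false. The pooled edgeR differences of the members in the main fit were smaller than either size, and smaller sizes were not simulated.

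The members and lists were chosen with earlier results of these data known. All 10 members were named in every comparison, with the 2 pathway genes of smallest p per class for severe against CON and the 3 genes of highest r for JAK2, STAT3, SOCS3 and CISH; a few of these are not reported here. Within each group every pair of libraries differed by more than sampling noise (lowest chi-square per degree of freedom 8.53). Alternatives were DESeq2 1.42.0, DESeq2 size factors, limma 3.58.1 voom with sample weights, no filter, a filter of 1 CPM in 20 libraries, other covariates, removal of 5 globin rows, and libraries or batch 2 left out. Sequences were not used here.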

Additional observations from a re-analysis of the deposited data

Results flagged for a closer look

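In 70 groups of 4 to 10 libraries (the groups within batches, and the severe group as a whole), 7 values lay far from the rest of their group; chance flags about 1 in 20 groups. SOCS3 in CON replicate 6 read 47.8 CPM, the highest of the 7 controls of batch 1, where the next read 19.9. JAK3 in CON replicate 16, a BKDL library with the highest TMM factor, read 107 CPM, and the next of the 7 controls of batch 3 read 61.5. CON replicate 10 was the lowest of the 5 controls of batch 2 for both STAT3, at 18.0 CPM against 24.1 for the next, and STAT5B, at 15.2 against 24.1. NEC_Mild replicate 1 was the lowest of the 4 mild piglets of batch 1 for STAT5B, at 21.8 CPM against 37.2, and for CISH, at 4.13 against 5.76. JAK2 in NEC_Severe replicate 9 read 6.52 CPM, the lowest of the 9 severe piglets, with the next at 13.6. That library was also the lowest severe one for TYK2, STAT3, STAT5B and STAT6, and the highest for STAT5A.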

How the results depend on the processing

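Counts of members called by edgeR stayed at 0 in the alternatives tried, except those named here. For severe against CON DESeq2 called 3 and limma 5, and for severe against mild limma called 1. With 1 library left out in turn the severe count ran from 0 to 3: it was 3 without NEC_Severe replicate 9, where 6.66% of all genes were called, and 1 (JAK2) without NEC_Mild replicate 1 (edgeR adjusted p = 0.0440; 2.35%) or CON replicate 17 (edgeR adjusted p = 0.0433; 2.13%). The fits by batch and sex without NEC_Severe replicate 2 were chosen after seeing the data and called 0 members. Values near 0 changed sign. JAK1 for severe against mild was 0.0045 with DESeq2, 0.0064 with its size factors, 0.059 with limma, 0.046 without a filter, 0.024 without batch and sex, and 0.0049 with the title number in place of batch. CISH for severe against CON was -0.033 with limma, -0.011 without batch and sex and -0.35 without batch 2. TYK2 for mild was -0.0050 with limma; without batch and sex JAK3 for NEC was -0.0050 and SOCS3 for mild 0.090; SOCS3 for NEC was -0.0091 without batch 2. The cause of these changes was not tested. Without batch 2 the severe ratios were 0.33 for JAK2 to JAK1, -0.33 for STAT5A to STAT5B (permutation adjusted p = 0.402 and 0.339) and -0.18 for STAT3 to STAT6, and fewer piglets entered; with a pseudocount of 5 the mild STAT3 to STAT6 ratio was 0.0039. Without TMM, r was 0.855 for STAT5B with CISH and 0.898 for STAT5A with STAT5B; centred by batch and severity, r of STAT5B with CISH was -0.262. Single libraries left out gave ranges of -0.129 to 0.181 for CISH severe, -0.0363 to 0.0809 for JAK1 severe against mild, -0.0262 to 0.0823 for JAK3 NEC, -0.0103 to 0.0737 for STAT5B NEC, -0.129 to 0.0111 for STAT5B mild and -0.0561 to 0.128 for TYK2 mild. The ratio ranges were -0.069 to 0.0301 for STAT3 to STAT6 mild, -0.112 to 0.00643 for STAT5A to STAT5B mild, 0.445 to 0.694 for JAK2 to JAK1 severe and -0.661 to -0.390 for STAT5A to STAT5B severe. No paired analysis was possible because the labels give no replicate numbers that the groups share. Batch 3 held 2 severe piglets and all of the BKDL controls, which limits its values.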
